A study of Homo sapiens with 4 samples.

Results

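The 10 genes described here encode intermediate filament proteins and a protein that links the filaments to the rest of the cell. They are the keratin genes KRT8, KRT7, KRT80, KRT81, KRT18 and KRT19, the vimentin gene VIM, the lamin genes LMNA and LMNB1, and the plectin gene PLEC. They were taken by symbol from the 58302 genes listed in each library, and all 10 were found. All libraries were polyA RNA-seq of T24 cells, a human line established from a urothelial carcinoma of the bladder. In 2 of them the cells belonged to a stable IGF2BP3 knockout line made with CRISPR/Cas9, and the other 2 held T24 cells labelled control. IGF2BP3 encodes an RNA-binding protein that recognises messenger RNAs marked with N6-methyladenosine. The comparison asks how the RNA of these genes differs in T24 cells without IGF2BP3. Whether replicates were separate cultures, or the knockout line 1 clone, is not in the labels. The p-values therefore measure a spread among these samples that may be no more than technical.

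Intermediate filaments are rope-like polymers that give a cell its resistance to stretching. Keratins form them only as pairs of a type I and a type II protein, and KRT8 with KRT18 is the standard pair of simple epithelia. Vimentin is the filament protein of mesenchymal cells and is often found beside keratins in carcinoma lines. Lamins line the inside of the nuclear envelope. Plectin is a very large protein of the plakin family that ties keratin and vimentin filaments to hemidesmosomes, to actin and to the nucleus.

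Levels are given as FPKM, that is reads divided by transcript length and by library total. The values corresponded to 811823 and 1240207 gene-assigned reads in the knockout libraries and to 2162179 and 1870884 in the control libraries, so both knockout libraries were shallower. A log2 difference below is knockout minus control on log2(FPKM + 0.5), a scale that understates changes of low genes. It was tested with limma over the 11463 genes with a mean of at least 1 FPKM, with Benjamini-Hochberg adjustment over all of them and a threshold of 0.05. The SE of such a difference came from genes of like level and not from the replicates of the gene itself. IGF2BP3 itself was listed at 0 and 0.190 FPKM in the knockout libraries, against 2.94 and 21.5 FPKM in the control libraries, which goes with the labels. In reads these are 0 and 1 in the knockout, and 27 and 171 in the control. The depth-scaled ratio of knockout to control reads was 0.0099 (exact 95% interval 0.00025 to 0.056, counting error only). With its SE taken from genes of like level, the log2 difference of −3.89 ± 2.83 (SE) did not pass (adjusted p = 0.955 in limma). Of 12 urothelial markers, of differentiated and of basal cells, 7 were at 0 in every library, the uroplakins UPK1A, UPK1B, UPK2 and UPK3A among them. All 7 leukocyte markers were at 0 in every library, as were 4 of 5 endothelial and 4 of 7 fibroblast markers. The fibroblast markers summed to 0 and 6.73 FPKM in the knockout libraries, against 14.9 and 3.95 FPKM in the control libraries, and their part in the vimentin values given later was not tested.

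Of the 10 genes, 8 could be tested, and KRT19 and KRT81 were at 0 in every library. None of the 8 passed the threshold in limma, against 10 of the 11463 genes (0.0872%), while KRT8 and KRT7 had an unadjusted p under 0.05, against 448 of all genes. Of the 10 genes that passed, 7 were higher (0.0611% of those tested) and 3 lower in the knockout, or 7 and 6 when FPKM were scaled to the same total in each library. The fitted difference was above 0 for 7 of the 8 and below 0 for KRT80. It was above 0 for 48.2% of all tested genes. The median difference of the 8 was 0.66, beside −0.08 over all genes tested. For KRT8, KRT18, KRT7 and VIM both knockout libraries stood above both control libraries. Among all tested genes the groups separated in that direction for 12.1%. For LMNA, LMNB1, PLEC and KRT80 the groups overlapped. Counting both directions, the groups did not overlap for 26.5% of all tested genes. Over these genes the correlation of log2 levels was 0.43 between the knockout libraries and 0.49 between the control libraries. Between libraries of different groups it was 0.42 to 0.49, so replicates were no more alike than libraries of different groups.

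**Figure D1:**
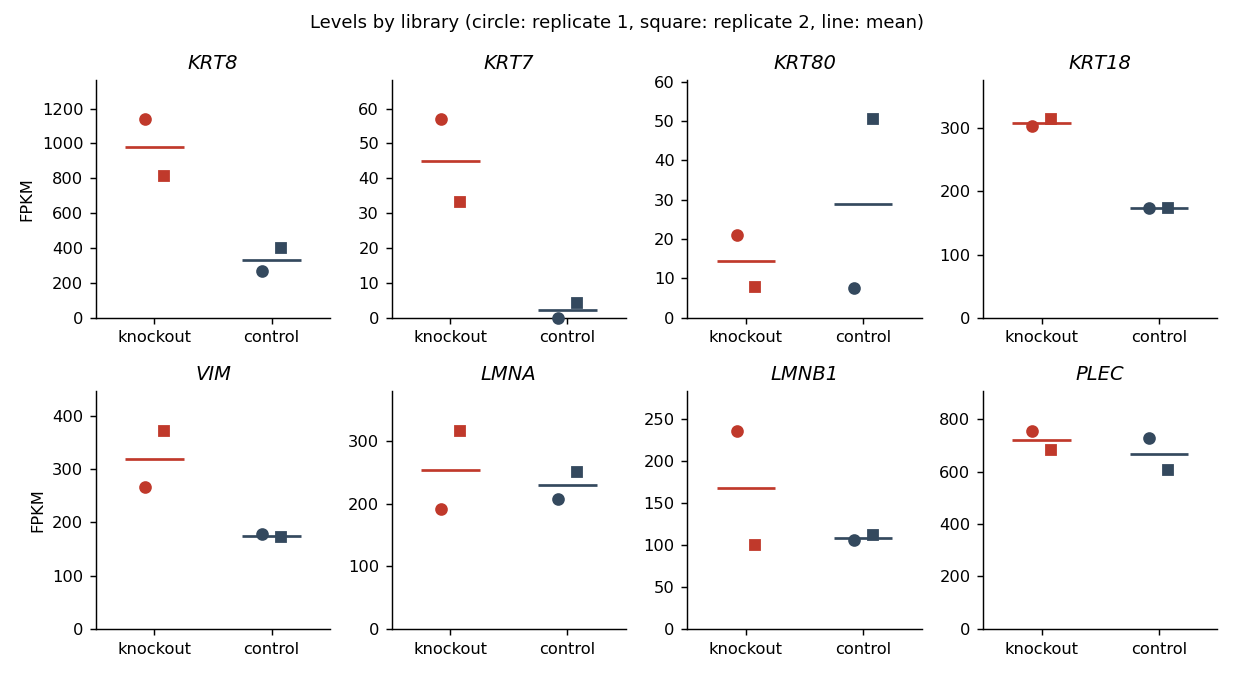
FPKM of the 8 genes above 0, 1 panel per gene, with the 2 knockout libraries on the left and the 2 control libraries on the right of each panel. Each axis starts at 0 and has its own scale. The groups are apart for KRT8, KRT7, KRT18 and VIM, and overlap for KRT80, LMNA, LMNB1 and PLEC.

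KRT8, the type II keratin of simple epithelia, had the highest level of the 6 keratins in every library. Its level was 1138 and 816 FPKM in the knockout libraries, against 266 and 397 FPKM in the control libraries. Both knockout values were more than the highest control value, and the groups did not overlap. The means were 977 ± 228 FPKM in the knockout and 332 ± 92.6 FPKM in the control (SD, n = 2 each), a ratio of means of 2.95. The log2 difference was 1.57 ± 0.41 (SE), with an adjusted p of 0.0896 in limma, short of the threshold. It lay between 1.28 and 1.85 with 1 library left out. The call depended on the fit. Its adjusted p was 4.39e-09 in limma-voom on whole reads recovered from the FPKM (log2 difference 1.51), but 0.187 in limma on genes averaging 5 FPKM or more, 0.418 with no filter on low values, 0.528 to 0.827 with 1 library left out and 0.891 with no trend in eBayes. Ranked by FPKM among protein-coding genes, KRT8 stood at 12 and 20 in the knockout libraries, against 126 and 70 in the control libraries. Its FPKM stand for 2645 and 2896 reads in the knockout libraries and for 1647 and 2126 reads in the control libraries. Counting error alone leaves the depth-scaled ratio of knockout to control reads between 2.77 and 3.01 (exact 95% interval), which says nothing of the spread between cultures.

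KRT8 (ENSG00000170421) lies on the minus strand of chromosome 12 at 52897187 to 52949954 in hg38, and its 5′ end runs into that of KRT18 (ENSG00000111057), at 52948871 to 52952901 on the plus strand. In the GENCODE 29 annotation the genes share 525 exon bases, which is 7.63% of those of KRT8 and 16.3% of those of KRT18. Whether reads were counted by strand is not given in the sources used here, so reads in that stretch could belong to either gene. Many processed copies of KRT8 also exist in the genome. Aligned to the coding sequence of KRT8, identity was 95.6% for KRT8P45 on chromosome 1, 95.8% for KRT8P33 on chromosome 5 and 91.9% for KRT8P46 on chromosome 4.

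Summed levels of the KRT8 pseudogenes were higher in the knockout libraries, as were those of KRT8. KRT8P3, at 97.1% identity the closest of the tested copies, had 20.4 and 18.4 FPKM in the knockout libraries, against 1.28 and 2.58 FPKM in the control libraries. KRT8P45 had 59.6 and 4.46 FPKM in the knockout libraries, against 0 and 0.369 FPKM in the control libraries. KRT8P33 had 6.06 and 43.6 FPKM in the knockout libraries, against 2.28 and 2.63 FPKM in the control libraries. For these 3 copies the groups did not overlap, although the knockout libraries differed several-fold for KRT8P45 and KRT8P33. KRT8P46, named here after its values were seen, had 0 and 40.7 FPKM in the knockout libraries, against 0 and 1.12 FPKM in the control libraries. None of the 4 passed the threshold (adjusted p = 0.955 in limma for each). Of the 7 tested pseudogenes of the members, 6 were higher and 1 lower in the knockout. For 3 of the 7 both knockout libraries stood above both control libraries, beside 12.1% of all tested genes. KRT8P45, KRT8P46 and KRT8P36 reached the mean of 1 FPKM needed for testing only through the knockout libraries, and KRT8P15 only through control 2. These counts are therefore partly set by the filter. KRT8P39, KRT8P15 and KRT8P36, also named after their values were seen, did not separate the groups. KRT8P39 had 11.17 and 0 FPKM in the knockout libraries, against 10.97 and 0 FPKM in the control libraries. KRT8P15 was above 0 only in control 2, at 5.16 FPKM, and KRT8P36 only in knockout 2, at 12.9 FPKM. Summed over the 50 KRT8 pseudogenes listed, of which 11 were above 0, there were 115 and 214 reads in the knockout libraries, against 45 and 38 reads in the deeper control libraries. That is 4.35 and 7.39% of the KRT8 reads in the knockout libraries, and 2.73 and 1.79% in the control libraries. Added to KRT8 they moved its log2 difference to 1.62 (adjusted p = 0.0521 in limma). How the authors' counting treated reads that match several places is not given in the sources used here, and which of these copies are transcribed was not tested. The 67 KRT18 pseudogenes held 3 and 2 reads in the knockout libraries and 6 and 8 reads in the control libraries.

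KRT18, the type I partner of KRT8, had 303 and 314 FPKM in the knockout libraries, against 173 and 173 FPKM in the control libraries. Replicates of either group lay almost on top of each other, and the groups were well apart. The means were 309 ± 7.86 FPKM in the knockout and 173 ± 0.0927 FPKM in the control (SD, n = 2 each), a ratio of means of 1.78. The log2 difference was 0.83 ± 0.55 (SE) and did not pass (adjusted p = 0.955 in limma), with a range of 0.80 to 0.86 when 1 library was left out. The gap between the replicates of KRT18 was 0.05 on the log2 scale in the knockout and 0.0011 in the control. The median gap of the 539 genes with a mean of at least 100 FPKM was 0.71 in the knockout and 0.51 in the control. Over all tested genes the median gap was 1.89 in the knockout and 1.60 in the control. Since the SE follows genes of like level, the close replicates of KRT18 did not enter its test. Its FPKM stand for 514 and 814 reads in the knockout libraries and for 783 and 677 reads in the control libraries. With so many reads, counting error alone is larger than the control gap. The closeness of these replicates is therefore no measure of how precisely the level is known.

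KRT7, a type II keratin of glandular and urothelial epithelia, had 56.9 and 33.1 FPKM in the knockout libraries, against 0 and 4.27 FPKM in the control libraries. In reads these are 81 and 72 in the knockout libraries, and 0 and 14 in the control libraries. The 0 was in control 1, the deepest library, which listed only 8856 genes above 0, against 11433 in control 2. The knockout libraries listed 7827 and 11127 genes above 0, so depth did not go with the number of genes detected. The depth-scaled read total was 21.5 times higher in the knockout (exact 95% interval 12.4 to 40.2, counting error only). The log2 difference of 4.83 ± 2.01 (SE), the largest of the 8, did not pass (adjusted p = 0.955 in limma), and it was 3.20 without control 1 and 6.46 without control 2. KRT7 (ENSG00000135480) lies on chromosome 12, plus strand, at 52232520 to 52252186 in hg38, and 7.67% of its exon bases are shared with minus-strand entries, KRT7-AS and the pseudogene KRT87P, both at 0 in every library. Single libraries listed many other genes at 0. Of all tested genes, 49.4% were at 0 in at least 1 library. That share includes genes with means down to 1 FPKM and was not taken for genes at the level of KRT7.

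KRT80 (ENSG00000167767; chromosome 12, minus strand, 52168996 to 52192000 in hg38), another type II epithelial keratin, pointed the other way. Its level was 20.9 and 7.66 FPKM in the knockout libraries, against 7.60 and 50.4 FPKM in the control libraries. Control 2 alone was high, and control 1 stood beside knockout 2. The log2 difference of −0.62 ± 1.49 (SE) turned to 0.71 without control 2 and to 0.07 without knockout 2, and did not pass (adjusted p = 0.986 in limma).

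KRT19 (ENSG00000171345; chromosome 17, minus strand, 41523617 to 41528308 in hg38), the type I keratin that often pairs with KRT7 or KRT8, was listed at 0 in all 4 libraries. A count of 0 allows up to 3 reads, which for KRT19 is 2.66 and 1.74 FPKM in the knockout libraries and 0.998 and 1.15 FPKM in the control libraries (counting error only). KRT81 (ENSG00000205426; chromosome 12, minus strand, 52285913 to 52291534 in hg38), a type II keratin known from hair, was also at 0 throughout, with limits of 1.92 and 1.25 FPKM in the knockout libraries and 0.719 and 0.831 FPKM in the control libraries. KRT81 has near copies beside it on chromosome 12. Over the aligned coding sequence, identity to KRT81 was 95.3% for KRT86 and 94.4% for KRT83. KRT86 and KRT83 were at 0 in every library too. Whether reads shared among the 3 genes were dropped in counting was not tested. Of the 49 other keratin genes, 46 were at 0 in every library, KRT5, KRT14 and KRT17 of basal epithelia among them, and KRT10 was the 1 that could be tested. KRT10 had 0 and 6.07 FPKM in the knockout libraries, against 0.218 and 2.52 FPKM in the control libraries (log2 difference 0.30 ± 2.74, SE; adjusted p = 0.996 in limma).

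VIM (ENSG00000026025), which encodes vimentin, had 267 and 372 FPKM in the knockout libraries, against 177 and 172 FPKM in the control libraries. The lowest knockout value was above both control values. The means were 319 ± 74.0 FPKM in the knockout and 175 ± 4.14 FPKM in the control (SD, n = 2 each), and the ratio of means, 1.83, was close to that of KRT18. The log2 difference was 0.85 ± 0.55 (SE), between 0.61 and 1.09 with 1 library left out, and did not pass (adjusted p = 0.955 in limma). VIM lies on chromosome 10, plus strand, at 17228259 to 17237593 in hg38. Minus-strand entries VIM-AS1 and AL133415.1 cover 24.4% of its exon bases, so without a known strand setting some VIM reads cannot be told apart from theirs. VIM-AS1 had 0 and 11.9 FPKM in the knockout libraries, against 0 and 2.37 FPKM in the control libraries, and AL133415.1 was above 0 only in control 2, at 14.4 FPKM. Of 11 other cytoplasmic filament genes, 9 were listed at 0 in every library, in data where many genes are listed at 0 in single libraries. SYNM (synemin) was above 0 only in control 1, at 19.3 FPKM, and NES (nestin) had 4.65 and 0 FPKM in the knockout libraries, against 0 and 0.0962 FPKM in the control libraries. Neither passed (adjusted p = 0.955 for each in limma).

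**Figure D2:**
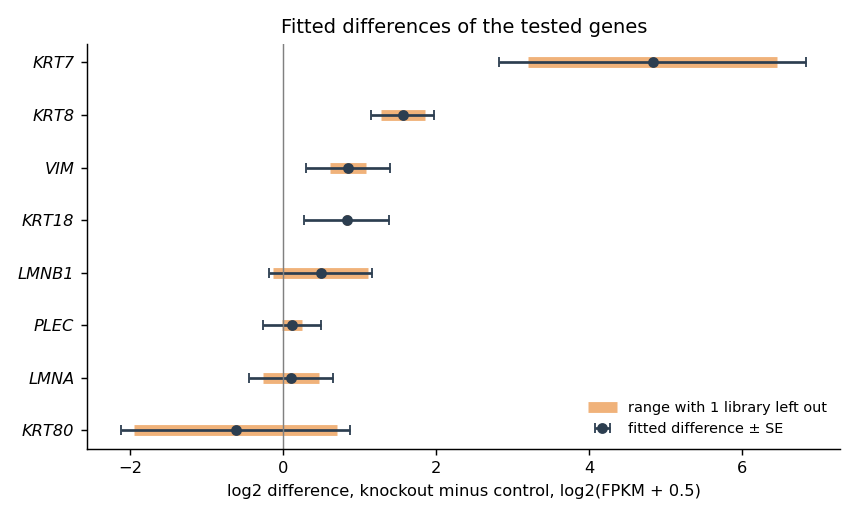
Fitted log2 difference, knockout minus control, of the 8 tested genes, on log2(FPKM + 0.5). Points with bars are the difference ± SE from all 4 libraries, and the orange band is its range with each library left out in turn. The band lies above 0 for KRT7, KRT8, VIM and KRT18, as it must where both knockout libraries exceed both controls. It reaches across 0 for the other 4.

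Ratios within a library do not depend on its depth or scaling. KRT8 exceeded KRT18 in each library, by 3.75 and 2.60 times in the knockout libraries and by 1.53 and 2.29 times in the control libraries. These values did not overlap between the groups, though knockout 2 and control 2 were close. The FPKM use the longest transcript of a gene, and with the shortest APPRIS principal transcript (1755 nt for KRT8 and 1420 nt for KRT18) the ratios were 4.16 and 2.88 in the knockout libraries, against 1.70 and 2.54 in the control libraries. All type II keratins together came to 4.01 and 2.73 times the type I keratins in the knockout libraries, and to 1.58 and 2.61 times in the control libraries. The 6 keratins summed to 1519 and 1171 FPKM in the knockout libraries, against 447 and 625 FPKM in the control libraries. Relative to VIM, the keratin sum was 5.69 and 3.15 in the knockout libraries and 2.52 and 3.64 in the control libraries, which overlapped. KRT18 relative to VIM was 1.14 and 0.846 in the knockout libraries and 0.977 and 1.01 in the control libraries, so that the control ratios lay between the knockout ratios. The ratios are given as descriptions, and no model was fitted to them. An exact permutation test of 2 against 2 libraries could not give a two-sided p under 0.333.

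**Figure D3:**
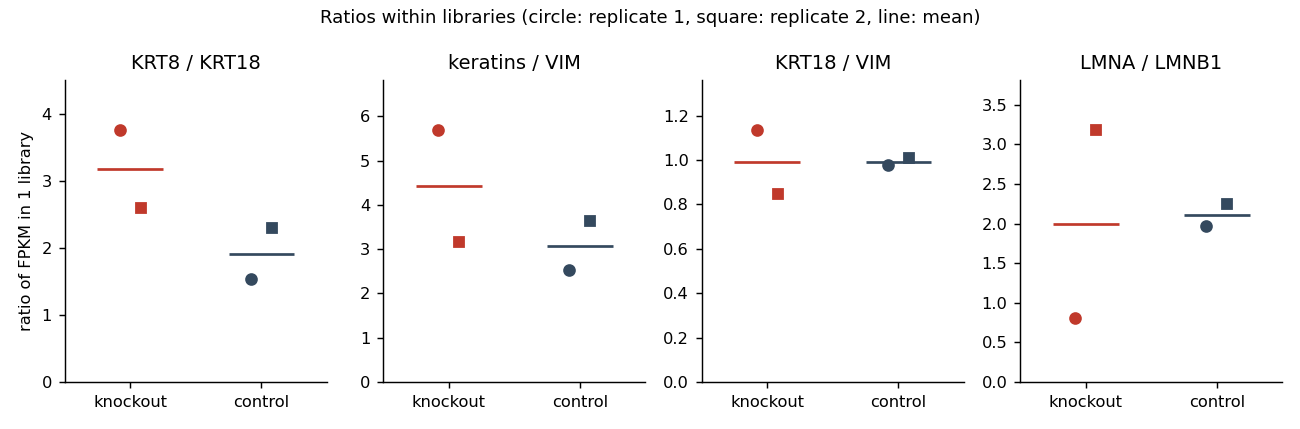
Ratios of FPKM within each library for 4 pairs, with the 2 knockout libraries on the left and the 2 control libraries on the right of each panel, and axes from 0. The groups are apart for KRT8 over KRT18 and overlap in the other 3 panels.

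LMNA (ENSG00000160789; chromosome 1, plus strand, 156082573 to 156140089 in hg38) encodes lamins A and C, which stiffen the nucleus. It had 191 and 317 FPKM in the knockout libraries, against 208 and 251 FPKM in the control libraries. The control values lay between the knockout values. The log2 difference was 0.11 ± 0.55 (SE; adjusted p = 0.994 in limma), and it was −0.26 without knockout 2 and −0.03 without control 1. LMNB1 (ENSG00000113368; chromosome 5, plus strand, 126776623 to 126837020 in hg38) encodes lamin B1, a farnesylated lamin held at the nuclear membrane and a gene often low in senescent cells. It had 236 and 99.8 FPKM in the knockout libraries, against 106 and 112 FPKM in the control libraries. Knockout 1 alone was high, with the other 3 libraries close together. Its log2 difference of 0.49 ± 0.67 (SE; adjusted p = 0.955 in limma) was −0.12 without knockout 1. LMNA relative to LMNB1 was 0.810 and 3.18 in the knockout libraries and 1.97 and 2.24 in the control libraries, so the knockout libraries differed from each other more than from the controls.

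LMNB2, the gene of the third lamin and no member of the 10, was the most abundant lamin in every library. It had 324 and 500.3 FPKM in the knockout libraries, against 469.8 and 478 FPKM in the control libraries (log2 difference −0.24 ± 0.45, SE; adjusted p = 0.976 in limma). Of 16 genes of the lamina and of the LINC complex, which couples the nucleus to the cytoskeleton, 14 were tested, 7 higher and 7 lower, none past the threshold, with a median log2 difference of −0.11. TMPO, which encodes lamina-associated polypeptide 2, had 110 and 57.6 FPKM in the knockout libraries, against 19.3 and 84.2 FPKM in the control libraries. BANF1, whose protein binds DNA and LEM-domain proteins of the envelope, had 19.2 and 9.08 FPKM in the knockout libraries, against 161 and 25.9 FPKM in the control libraries. In this group 2 genes had knockout libraries below both control libraries, BANF1 and SUN2 (SUN2 was named after its values were seen), against 14.4% of all tested genes, and 0 had them above both, against 12.1%. SUN2 had 16.7 and 15.5 FPKM in the knockout libraries, against 40.5 and 20.2 FPKM in the control libraries. Among the 5 enzymes that farnesylate and trim lamin precursors, 3 were tested and none passed. ZMPSTE24, the protease that matures prelamin A, had 13.1 and 19.2 FPKM in the knockout libraries, against 115 and 14.4 FPKM in the control libraries, control 1 being the 1 high library. ICMT had 10.3 and 20.96 FPKM in the knockout libraries, against 13.7 and 13.4 FPKM in the control libraries, and RCE1 had 0.453 and 8.30 FPKM in the knockout libraries, against 0 and 6.68 FPKM in the control libraries.

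PLEC (ENSG00000178209; chromosome 8, minus strand, 143915147 to 143976734 in hg38), the plectin gene, had 756 and 684 FPKM in the knockout libraries, against 727 and 606 FPKM in the control libraries. The groups overlapped, and the gap within each was wider than the difference between their means on the log2 scale. The means were 720.4 ± 50.7 FPKM in the knockout and 666 ± 85.5 FPKM in the control (SD, n = 2 each). Its log2 difference of 0.12 ± 0.38 (SE; adjusted p = 0.991 in limma) was −0.01 without control 2. Its longest transcript measures 15249 nt, and in reads PLEC ranked 1 among protein-coding genes in each of the 4 libraries. It took 1.15 and 1.04% of the reads of the knockout libraries and 1.11 and 0.924% of those of the control libraries. In limma-voom on recovered reads PLEC passed (adjusted p = 6.06e-06, against 0.689 to 0.998 in the other alternatives) with a log2 difference of 0.06 ± 0.01 (SE), a difference far smaller than the gap between its own replicates, 0.14 in the knockout and 0.26 in the control on log2(FPKM + 0.5). By length-scaled level, KRT8 stood above PLEC in both knockout libraries and below it in both control libraries.

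**Figure D4:**
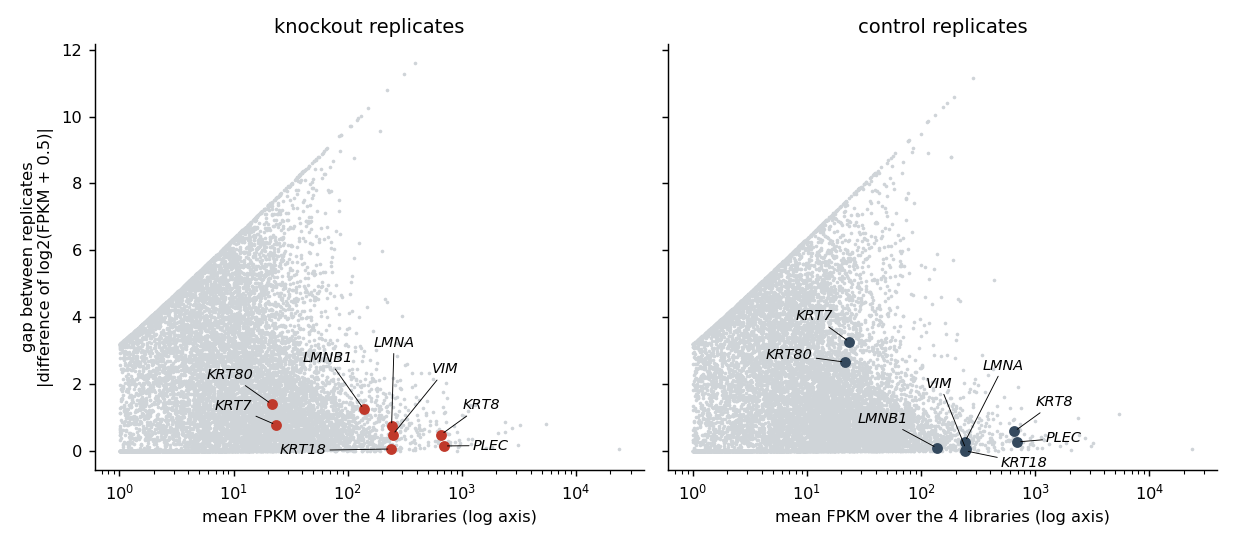
Gap between the 2 replicates of a group on log2(FPKM + 0.5) against mean FPKM (log axis), for knockout (left) and control (right), with all tested genes in grey. KRT18 has the smallest gap of the 8 genes in both groups, at 0.05 and 0.0011, while KRT7 and KRT80 have gaps of 3.25 and 2.65 in the control.

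The structures to which plectin and keratins attach were described by a list of their genes. Of 20 plakin, desmosome and hemidesmosome genes, 14 were tested, 7 higher and 7 lower, none past the threshold, with a median log2 difference of −0.05. CD151, a tetraspanin of hemidesmosomes, had 174 and 109.6 FPKM in the knockout libraries, against 104 and 115 FPKM in the control libraries. MACF1, a plakin that joins actin and microtubules, had 66.7 and 93.8 FPKM in the knockout libraries, against 153 and 109.97 FPKM in the control libraries, and ITGA6, the integrin α6 subunit, had 112 and 41.5 FPKM in the knockout libraries, against 57.1 and 36.2 FPKM in the control libraries. Knockout libraries lay below both control libraries for 4 of the 14, again beside 14.4% of all tested genes, and above both for 0 of the 14, beside 12.1%. They were MACF1 and, named after their values were seen, JUP, ITGB4 and DSC2. JUP, which encodes plakoglobin, had 29.6 and 39.2 FPKM in the knockout libraries, against 67.7 and 41.9 FPKM in the control libraries. ITGB4, the integrin β4 subunit that plectin binds in hemidesmosomes, had 0 and 3.81 FPKM in the knockout libraries, against 11.3 and 9.48 FPKM in the control libraries. DSC2, a desmosomal cadherin, had 0.600 and 1.05 FPKM in the knockout libraries, against 3.41 and 2.60 FPKM in the control libraries.

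**Figure D5:**
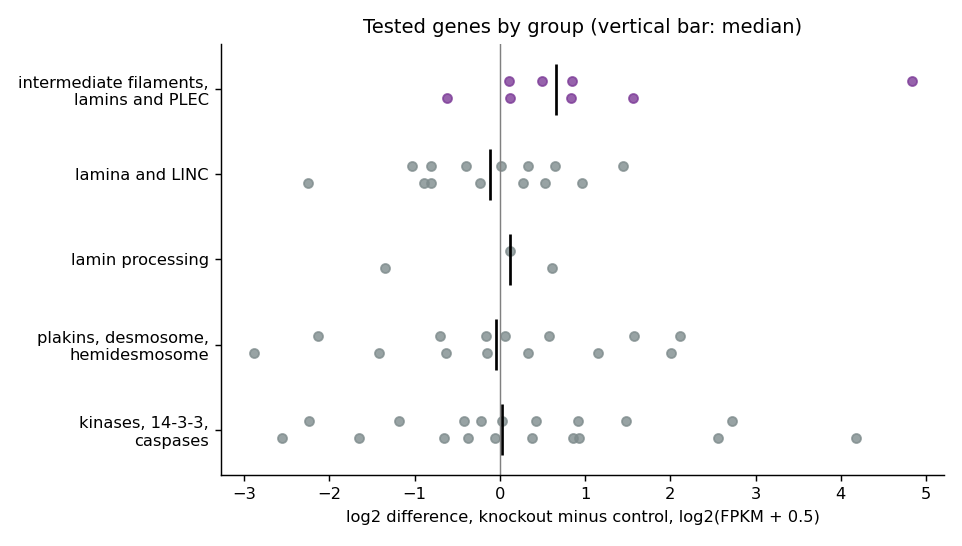
Fitted log2 difference, knockout minus control, of each tested gene, by group, with the group's median as a vertical bar. The 8 filament and linker genes have a median of 0.66, and the medians of the other 4 groups drawn lie between −0.11 and 0.12. Lists not drawn had medians further from 0. These were 1.33 for urothelial markers (3 tested), 2.37 for pseudogenes of the members (7 tested) and 0.30 for other keratins (1 tested). They were −0.55 for other cytoplasmic filament genes (2 tested) and −0.56 for fibroblast markers (1 tested). Several of the genes not drawn reached the mean of 1 FPKM through 1 group only, so the filter partly sets these medians. Among them were KRT8P45, KRT8P46, KRT8P36, UPK3B and NES through the knockout, and KRT8P15 and SYNM through the control.

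Together the 10 genes made up 0.820 and 0.739% of the summed FPKM of the knockout libraries, against 0.466 and 0.484% of that of the control libraries, values that did not overlap between the groups. KRT8 had the largest part in that difference. In reads, where the long PLEC transcript counts for most, their share was 1.77 and 1.59% in the knockout libraries, against 1.37 and 1.26% in the control libraries. In bulk RNA of a cell line, a change in all cells and a change in some of them cannot be told apart.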

How the data were processed

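PolyA RNA-seq was analysed for 2 IGF2BP3 knockout and 2 control libraries of T24 cells. The authors deposited 1 FPKM table per library. The file names point to counting with HTSeq, and the submitters' processing notes name hg38. For the aligner, annotation release and strand setting, nothing is given in the sources used here. Names, positions, transcript lengths and the transcripts aligned came from GENCODE 29 (hg38), which matched 58039 of 58302 genes. RefSeq promoter sequences were not used here.

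Multiplied by the longest transcript, FPKM were whole multiples of the worth of 1 read for 96.4 to 96.5% of genes above 0 (tolerance 0.0001 reads), which gave the depths and reads. Intervals and limits cover counting error only.

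Genes averaging 1 FPKM or more were fitted with limma 3.58.1 (R 4.3.3; lmFit, eBayes with trend) on log2(FPKM + 0.5), two-sided. The fit was run on simulated reads with the same small spread for every gene, smaller than that between these replicates. That run checked the working of the fit and not its error rate in these data. Alternatives covered pseudocount, filter, scaling, moderation, a replicate block, each library left out, protein-coding genes, the threshold and limma-voom on recovered reads. APPRIS lengths and pooling KRT8 with its pseudogenes were chosen after seeing the data. The members and lists were chosen with earlier results of these data known. Genes named are the members, IGF2BP3, KRT83, KRT86, and the 3 most abundant tested genes of each list and of the pseudogenes. Other genes, those named for being at 0 included, were named after their values were seen. Python 3.11.15, pandas 2.3.3, scipy 1.17.1, Biopython 1.88 (local alignment) and matplotlib 3.10.9 were used.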

Additional observations from a re-analysis of the deposited data

How the results depend on the processing

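KRT8, KRT7, KRT18 and VIM kept a difference above 0 in every alternative run. As both knockout libraries stood above both controls for these genes, leaving out 1 library could not turn the sign. A changed filter, trend or block left the difference itself as it was. The kept sign is therefore no further support. Of the 8 tested members, 7 were higher in each alternative that kept all libraries (6 or 7 with 1 left out). The count of genes past the threshold, 10, was 0 without trend in eBayes (415 at an unadjusted p under 0.05), 2 among protein-coding genes, 18 at an adjusted p of 0.1 and 0 with any 1 library left out (578 to 1017 at an unadjusted p under 0.05). The count of members past it, 0, was 1 (KRT8) at an adjusted p of 0.1 and 2 (KRT8 and PLEC) in limma-voom. With the replicate number as a block it was 1 (KRT8, adjusted p = 0.01, 14 genes in all). Same-numbered libraries did not deviate together (correlation −0.0040), so the numbers pair nothing by this measure. The median difference of all genes was −0.08, 0.04 in limma-voom, and −0.75 to 0.48 with 1 library left out.

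With 1 library left out, where the fit assumes that the lone library varies as the other group does, signs turned for KRT80 (−1.95 to 0.71), LMNA (−0.26 to 0.47), LMNB1 (−0.12 to 1.11), PLEC (−0.014 to 0.25), KRT10 (−0.73 to 2.16), LMNB2 (−0.55 to 0.078), TMPO (−0.081 to 2.02), ZMPSTE24 (−2.82 to 0.13), ICMT (−0.38 to 0.61), RCE1 (−1.31 to 2.53), CD151 (−0.0021 to 0.66), ITGA6 (−0.13 to 1.29), YWHAE (−0.56 to 0.62), PPP1CA (−0.60 to 0.47), CD44 (−0.22 to 0.64), PPARG (−1.94 to 4.60) and COL1A1 (−3.03 to 1.91). KRT10 was also −0.21 at a pseudocount of 0.1, and YWHAE −0.13 in limma-voom. The causes were not tested. At these depths and by counting error alone, levels of KRT19 up to 2.66 FPKM and of KRT81 up to 1.92 FPKM in knockout 1 would allow a count of 0. Replicates spread more widely than counting error. PPARG had 46.1 and 0 FPKM in the knockout libraries, and SYNM 19.3 and 0 FPKM in the control libraries. These limits are therefore not ceilings.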

Other observations

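Kinases, phosphatases, 14-3-3 proteins and caspases that modify or bind intermediate filaments were split, with 10 of 19 tested genes higher and 9 lower in the knockout, none past the threshold in limma, and a median log2 difference of 0.03. YWHAE, the gene of 14-3-3 epsilon, had 409 and 179.8 FPKM in the knockout libraries, against 287 and 246 FPKM in the control libraries. AURKB, a mitotic kinase that phosphorylates vimentin, had 191 and 149 FPKM in the knockout libraries, against 266 and 192 FPKM in the control libraries, which did not overlap (log2 difference −0.42 ± 0.58, SE; adjusted p = 0.955 in limma). PPP1CA, a catalytic subunit of protein phosphatase 1, had 237 and 113 FPKM in the knockout libraries, against 147 and 198 FPKM in the control libraries.

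Among the tested urothelial markers, CD44, a receptor for hyaluronan found on basal urothelial cells, was high throughout at 391 and 223 FPKM in the knockout libraries, against 344 and 189 FPKM in the control libraries. PPARG, a nuclear receptor of luminal urothelium, had 46.1 and 0 FPKM in the knockout libraries, against 0 and 6.85 FPKM in the control libraries, and UPK3B was above 0 only in knockout 2, at 6.80 FPKM. Of the fibroblast markers, COL1A1 had 0 and 6.59 FPKM in the knockout libraries, against 14.9 and 0 FPKM in the control libraries. None of these genes passed the threshold in limma.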
